A study of Mus musculus with 4 samples.

Results

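miR-155 is a microRNA whose hairpin yields a mature strand from each arm, miR-155-5p and miR-155-3p. Both were taken by name from a table of 1078 mature mouse miRNAs, so the data below concern 2 of 1078 names, followed through 4 small RNA libraries with 1 library per cell type. The mice were of the C57BL/6J strain. The stem cell library (HSC) held c-Kit+ Sca1+ Lineage- marrow cells with a stated sort purity above 95%. The immature dendritic cell library (imDC) came from marrow of mice aged 5 to 6 weeks, kept 6 days in GM-CSF at 10 ng/mL with IL-4 at 1 ng/mL. The other dendritic cells began from marrow prepared in the same way from mice of that age, and the labels give no age for the HSC donors. Mature dendritic cells (maDC) were exposed to the same cytokines and, from day 4, to LPS at 10 ng/mL, and a CD11c bead selection followed on day 8. Regulatory dendritic cells (DCreg), named in the design as producers of IL-10 and NO, were such maDC seeded onto endothelial-like stromal cells of the spleen for 7 days or more, detached with trypsin and EDTA and selected on CD11c beads, so they too had met LPS. The groups therefore differ in time in culture, in bead selection and in contact with stroma as well as in name. Each cell type has 1 library, so nothing was tested and the differences below lack a replicate check.

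A miRNA hairpin is cut from a longer transcript by Drosha and then by Dicer, and the strand that enters Argonaute finds its targets mainly through its seed, bases 2 to 8. miR-155-5p is the strand known for most of the functions of this hairpin. In mouse myeloid cells it is induced by Toll-like receptor (TLR) ligands, and it represses Socs1 and Inpp5d, brakes on cytokine and phosphoinositide signalling, and in dendritic cells Spi1, which encodes the transcription factor PU.1. miR-155-3p, the opposite strand, is known from human plasmacytoid dendritic cells, where it targets IRAK3.

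The mature sequences, credited to RefSeq (GRCm38.p6), are shown with the seed in capitals, since every later statement on read starts concerns these bases. They equal the sequences in the deposited table.
miR-155-5p: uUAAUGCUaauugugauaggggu
miR-155-3p: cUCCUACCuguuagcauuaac
The hairpin of 65 nt is shown with both arms in capitals, because the bases that follow each arm decide whether a longer read still matches the precursor.
Mir155: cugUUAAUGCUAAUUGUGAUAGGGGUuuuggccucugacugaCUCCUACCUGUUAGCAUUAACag
It lies on chromosome 16 at positions 84714140 to 84714204, plus strand, in exon 2 (84714053 to 84715245) of the long non-coding gene Mir155hg, per GENCODE for GRCm38. No other of the 1064 unique mature sequences in the table shares the seed of either arm, nor its bases 2 to 7, so no seed family adds to the values below.

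In the deposited table, miR-155-5p was at 47.6 ppm in HSC, 2609 ppm in imDC and 1651 ppm in maDC, with 141 ppm in DCreg (ppm, parts per 1000000 of that column's sum). The imDC and maDC libraries were thus high and the HSC and DCreg libraries low, with HSC lowest. Recounting the deposited reads by exact match gave 154 reads in HSC, 11514 in imDC and 6154 in maDC, with 345 in DCreg. In ppm of recounted reads these were 29.6 (95% Poisson interval 25.1 to 34.7) in HSC, 2185 (2146 to 2226) in imDC and 1114 (1086 to 1142) in maDC, with 87.7 (78.7 to 97.5) in DCreg. The order was the same as in the table, and no neighbours in it overlapped within counting error. All intervals cover counting error only, since reads amplified for 12 cycles without molecular identifiers are not independent molecules. Among the 1078 names miR-155-5p ranked 200 in HSC, 41 in imDC and 40 in maDC, with 105 in DCreg, so it stood higher among the names in imDC and maDC than in the other libraries.

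miR-155-3p followed at a far lower level. Its table values were 1 in HSC, 137 in imDC and 82 in maDC, with 4 in DCreg, or 0.237, 26.1, 18.3 and 1.47 ppm in the same libraries. The recount found no read in HSC, 102 in imDC and 65 in maDC, with 4 in DCreg. A count of 0 in HSC allows up to 0.577 ppm by the limit of 3 reads and up to 0.710 ppm by the 95% Poisson interval. The 3p arm of HSC was thus not detectable at this depth. The recounted levels were 19.4 ppm in imDC (15.8 to 23.5), 11.8 ppm in maDC (9.08 to 15.0) and 1.02 ppm in DCreg (0.277 to 2.60), so imDC, maDC and DCreg were apart within counting error while DCreg and HSC were not. It never reached the 100 ppm needed for a call.

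**Figure D1:**
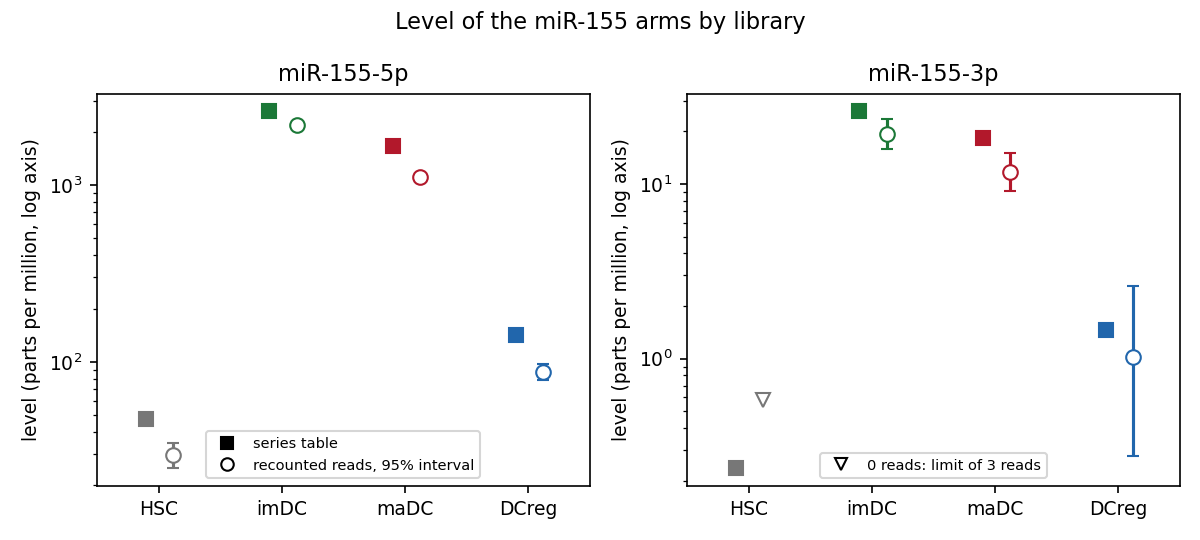
Level of miR-155-5p (left) and miR-155-3p (right) in each library on a log axis, in parts per 1000000 (ppm). Filled squares are deposited table values, open circles recounted reads with a 95% Poisson interval, and the open triangle is the limit of 0.577 ppm (3 reads) that 0 reads allow; both arms are highest in imDC, and HSC has the lowest table value of each.

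Immature dendritic cells against stem cells gave the steepest difference. miR-155-5p was 54.9-fold higher in imDC (recount 73.8-fold, exact conditional 95% interval 62.9 to 87.0). A miRNA was called different at 2-fold or more and 100 ppm in 1 of the libraries compared, and by this rule 26.2% of the 187 miRNAs tested were higher in imDC and 28.3% lower. Of these log2 ratios that of miR-155-5p, which passed the minimum in imDC and not in HSC, ranked 3 from the top. miR-155-3p had 33.5-fold more recounted reads per 1000000 in imDC, taking the floor of 3 reads for HSC, and the lower bound of the exact interval was 26.8-fold. Against the same HSC library maDC held 34.7-fold more miR-155-5p (recount 37.6-fold, 32 to 44.4), rank 5 of 180 miRNAs, where 21.7% were called higher and 48.9% lower. That log2 ratio, 5.11 as deposited, was 5.73 under median-of-ratios and 5.87 under a trimmed mean (TMM). DCreg held 2.96-fold more than HSC (recount 2.96-fold, 2.44 to 3.6), rank 25 of 175, with 19.4% called higher and 56.0% lower. Its log2 ratio, 1.56 as deposited, was 2.43 with the trimmed mean and 2.19 with median-of-ratios. For miR-155-3p the recounted level over the same floor was 20.4-fold in maDC and 1.76-fold in DCreg, with lower interval bounds of 16.1 and 0.873. The DCreg interval thus includes equal levels. All comparisons with HSC share its single library. In each of them miR-155-5p passed the 100 ppm minimum in the dendritic cell library and not in HSC, so the filter fixed its direction.

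Of all pairs, LPS-matured and immature cells differed least in miR-155-5p. The ratio of miR-155-5p in maDC (1651 ppm) to that in imDC (2609 ppm) was 0.633, which was not called. By recounted reads it was 0.510 (0.494 to 0.526), near the 2-fold limit. The median log2 ratio of the 160 miRNAs tested was -0.88, that of miR-155-5p -0.66. In this pair 9.38% of miRNAs were called higher and 45.0% lower. The direction depends on scaling: the log2 ratio was 0.044 with median-of-ratios and -0.97 in recounted reads. Median-of-ratios shifted all tested miRNAs by 0.70. For miR-155-3p (18.3 ppm in maDC, 26.1 ppm in imDC) the recounted ratio was 0.608 (0.438 to 0.838), and its log2 ratio was 0.20 with median-of-ratios.

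Regulatory cells stood far below the mature cells they were derived from. miR-155-5p was 141 ppm in DCreg and 1651 ppm in maDC, 11.7-fold lower (recount 12.7-fold, 11.4 to 14.2). Of the 138 miRNAs tested, 28.3% were called lower and 20.3% higher, and 5 lay below miR-155-5p. Against imDC it was 18.5-fold lower in DCreg (recount 24.9-fold, 22.4 to 27.8), rank 6 from the bottom of 168 miRNAs, of which 56.0% were called lower and 16.1% higher. This log2 ratio, -4.21 as deposited, was -3.55 with the trimmed mean and -3.49 with median-of-ratios. miR-155-3p was 11.6-fold lower in DCreg than in maDC (4.31 to 43.7) and 19.0-fold lower than in imDC (7.21 to 71.2) by recounted reads, resting on 4 reads in DCreg. In bulk libraries fewer cells with miR-155 and less miR-155 per cell cannot be told apart.

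**Figure D2:**
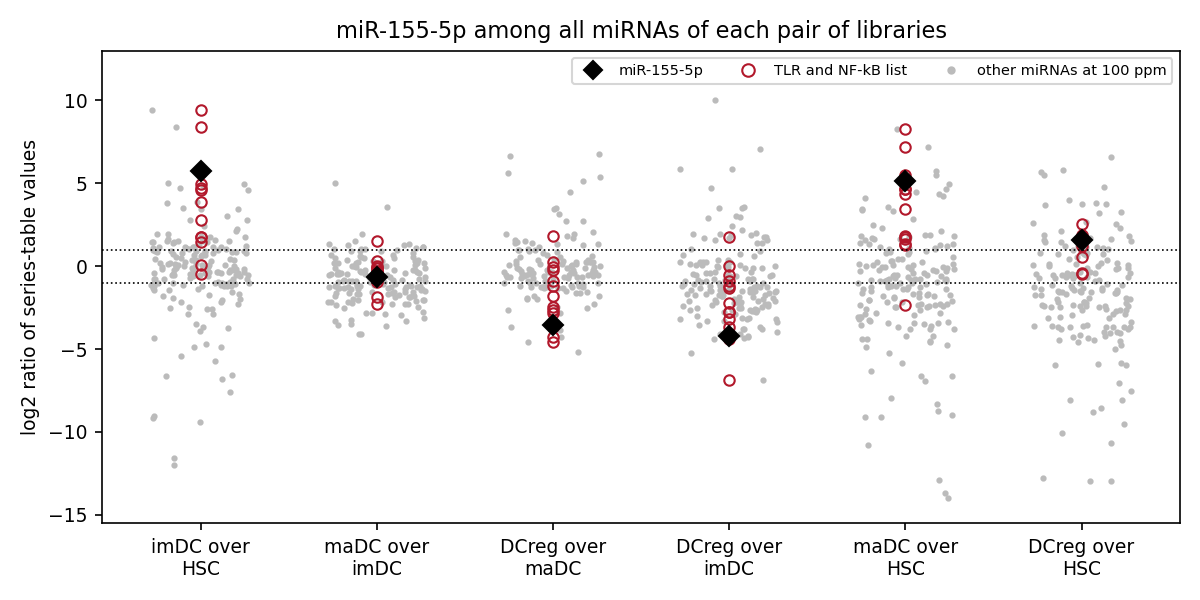
Log2 ratio of deposited values for each pair of libraries, first-named over second-named, for miR-155-5p (black diamonds), the TLR and NF-kB list (open red circles) and every other miRNA at 100 ppm in 1 of the 2 libraries (grey points, spread sideways for legibility). Dotted lines mark 2-fold; miR-155-5p lies near the top against HSC for imDC and maDC and near the bottom for DCreg against maDC and imDC.

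The sums of miRNA markers of blood lineages and of other cells also differed between these libraries, though not every member did so clearly. The 4 blood-lineage miRNAs (both arms of miR-142 and of miR-223) were above the floor in every library and summed to 24232 ppm in HSC, 13430 in imDC and 14525 in maDC, with 10199 in DCreg. The 4 lymphoid names summed to 3255, 1967, 2232 and 1960 ppm in the same order. Of these miR-150-5p was at 914, 17.1, 1.56 and 2.20 ppm, and miR-150-3p was at 0 in maDC and DCreg. Most of the sum was miR-342-3p, at 2070, 1814, 2098 and 1914 ppm, and miR-342-5p was at 74.1, 129, 132 and 43.7 ppm. The 3 erythroid names in the table summed to 14986 ppm in HSC and to 17.3 ppm or less elsewhere. The 9 stromal names summed to 1211, 69.9, 181 and 261 ppm, with 7, 4, 5 and 5 of them above the floor of 3 units, and miR-218-5p was at 0 in HSC and DCreg. In recounted reads the stromal sum was 298 ppm in DCreg and 321 ppm in maDC, the opposite order to the table. Among these miR-143-3p had 373 recounted reads in DCreg and 161 in maDC, while miR-199a-3p had 757 in DCreg and 1578 in maDC. Both arms of the endothelial miR-126 summed to 121 ppm in HSC, 8.00 in imDC and 2.46 in maDC. In DCreg both were at or under the floor (1.47 ppm in sum). The part of all these markers in the miR-155 differences was not tested. These libraries hold no mRNA, so CD11c and c-Kit cannot be checked in them.

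The other miRNAs tied to TLR and NF-kB signalling were described as a list of 19 names, 18 of them in the table. miR-146a-5p represses the TLR signalling components Traf6 and Irak1, miR-132 and miR-212 share a primary transcript, and miR-147 is induced by TLR ligands in mouse macrophages. In imDC against HSC, 11 of 13 tested members were higher and 0 lower, where 26.2% of all tested miRNAs were higher (median log2 ratio 3.85, all tested -0.12). Of the 13, 6 reached 100 ppm in imDC and not in HSC, so the filter fixed their direction, and of the 7 at 100 ppm in both libraries 5 were higher and 0 lower. In maDC against HSC 12 of 13 were higher and 1, miR-146a-5p, lower, where 21.7% of all were higher (median 3.45, all tested -0.97). Here too 6 reached 100 ppm in maDC and not in HSC, and of the other 7 members 6 were higher. In maDC against imDC all 13 reached 100 ppm in both, 1 was higher, miR-221-5p, and 2 were lower, miR-146a-5p and miR-9-5p, where 45.0% of all were lower (median -0.34, all tested -0.88).

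In DCreg against maDC 1 of 13, miR-146a-5p, was higher and 8 were lower, where 28.3% of all were lower (median -1.78, all tested -0.34). Of the 13, 6 reached 100 ppm in maDC and not in DCreg, so the filter fixed their direction. Of the 7 at that level in both, 1 was higher and 2 were lower, near the share of all miRNAs. In DCreg against imDC 1, miR-221-5p, was higher and 9 were lower, where 56.0% of all were lower (median -2.21, all tested -1.25). Of the 7 at 100 ppm in both DCreg and imDC 1 was higher and 3 were lower, a share not above that of all miRNAs. The shares of all miRNAs cover those at 100 ppm in either library, so the filters differ. In DCreg against HSC 4 of 7 were higher and 0 lower, where 19.4% of all were higher (median 1.23, all tested -1.43). miR-146a-5p did not share the pattern of miR-155-5p, at 1561 ppm in HSC, 1105 in imDC and 309 in maDC, with 1115 in DCreg.

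The miRNAs most like miR-155-5p over the 4 libraries were sought among 197 that reached 100 ppm in at least 1 library, by the root mean square difference of log2 levels after centring each miRNA on its own mean. The nearest was miR-212-5p (difference 0.41), at 7.57 ppm in HSC, 189 in imDC and 193 in maDC, with 15.0 in DCreg. It was followed by miR-147-3p (0.46; 28.2, 745, 589 and 82.2 ppm in the same order) and miR-132-3p (0.55; 14.4, 455, 374 and 67.9 ppm). miR-212-3p came next (0.57; 3.31, 174, 159 and 25.3 ppm). The fifth, miR-365-2-5p, was farther off (1.02; 10.2, 120, 122 and 34.5 ppm). All of them reached 100 ppm in imDC and maDC and not in HSC or DCreg, so the filter fixed their direction between those libraries. Of these miRNAs, 4 are on the list above, which was chosen with earlier results of these data known. The overlap is therefore no separate support. Among them miR-212-5p, miR-132-3p and miR-212-3p come from 1 shared primary transcript. The same 4 led in the same order in recounted reads. miR-155-3p, under the level for this ranking, differed from miR-155-5p by 0.25.

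**Figure D3:**
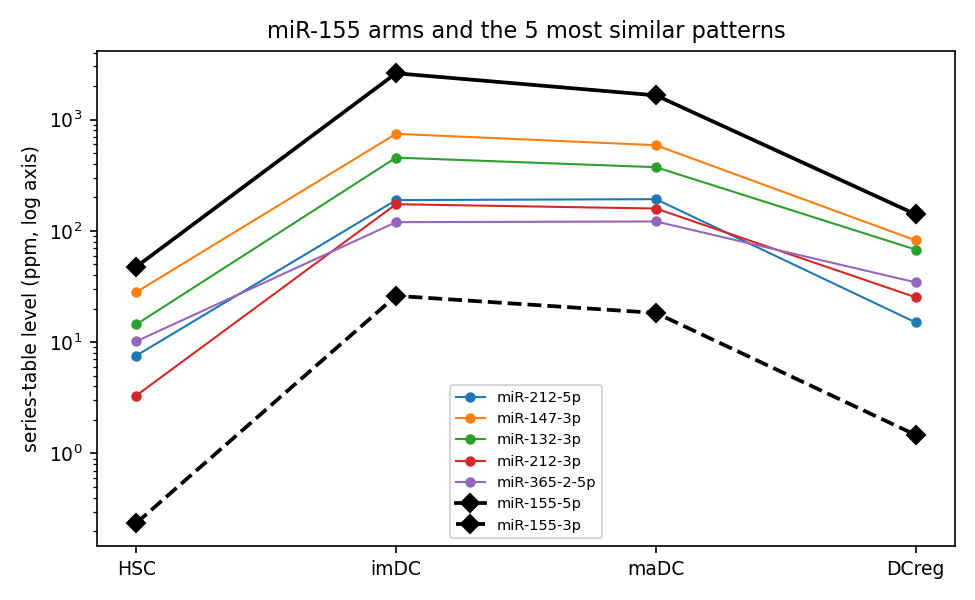
Deposited level in ppm (log axis) of both miR-155 arms (black) and of the 5 miRNAs with the most similar pattern (coloured), by library. Each is low in HSC, high in imDC and maDC and lower again in DCreg; lines join libraries only to guide the eye.

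The balance of the arms differed by less than counting error among the dendritic cell libraries. The 3p arm supplied 1.15% of the arm reads in DCreg (4 of 349, exact Clopper-Pearson 95% interval 0.313% to 2.91%), 1.05% in maDC (0.808% to 1.33%) and 0.878% in imDC (0.717% to 1.06%). In HSC it supplied none of 154, which allows a share of up to 1.95% by the limit of 3 reads and of up to 2.37% by the exact interval. The table gave 0.495% in HSC, 0.990% in imDC and 1.10% in maDC, with 1.03% in DCreg. The odds of a 3p read were 1.19 times as high in maDC as in imDC (0.858 to 1.65) and 1.10 times as high in DCreg as in maDC (0.289 to 2.97). DCreg against imDC gave 1.31 (0.348 to 3.49). A change of 2-fold thus lay outside the interval for maDC against imDC, but not for DCreg. Among other hairpins with at least 100 arm reads in both libraries, the arm ratio changed at least 2-fold in 51.5% of 101 for maDC against imDC, in 40.7% of 86 for DCreg against maDC and in 60.2% of 88 for DCreg against imDC. The lesser arm of other hairpins supplied a median of 2.50% of reads in imDC and 1.20% in maDC, with 0.95% in DCreg. A hairpin near 100 arm reads can thus have few reads of its lesser arm, so the shares of changed arm ratios include counting error.

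Among counted reads, whose starts had to lie within 2 nt of the annotated start, the seed was nearly always that of the annotation. Of miR-155-5p reads, 94.8% began at the annotated base in HSC (90.0% to 97.7%), 97.2% in imDC (96.8% to 97.5%) and 97.5% in maDC (97.0% to 97.8%), with 98.8% in DCreg (97.1% to 99.7%). The median of other miRNAs with at least 500 reads was 99.1% to 99.4% in the 4 libraries. Most other miR-155-5p reads began 1 or 2 nt inside the annotated start. In imDC 16 reads had 2 bases and 11 had 1 base before it. The bases before the annotated start did not match the hairpin in 26 imDC reads and 18 maDC reads. Those reads do not show an earlier start on the hairpin. Of miR-155-3p reads 94 of 102 in imDC, 62 of 65 in maDC and all 4 in DCreg began at the annotated base.

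The 3p arm, by contrast, mostly ended 1 base beyond its annotated end. Its 2 commonest reads are shown, with the base past the annotation in capitals, which matches the hairpin.
22 nt: ctcctacctgttagcattaacA
21 nt: ctcctacctgttagcattaac
The longer read made up 60.8% of 3p reads in imDC (62 reads), 76.9% in maDC (50) and all 4 in DCreg, the annotated one 19, 1 and 0 reads in the same order. Because the hairpin continues with A after this arm, an added A cannot be told apart from a longer cut.

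The 3' ends of miR-155-5p differed between libraries. The reads that carry this result are shown as sequenced (T for U), with capitals for bases past the annotated end or for bases that do not match the hairpin. Lines 1 to 3 end early, line 4 is the annotated form, and lines 5 and 6 run on into the hairpin.
21 nt: ttaatgctaattgtgataggg
22 nt, with A: ttaatgctaattgtgatagggA
23 nt, with A: ttaatgctaattgtgataggggA
23 nt: ttaatgctaattgtgataggggt
24 nt: ttaatgctaattgtgataggggtT
25 nt: ttaatgctaattgtgataggggtTT
The annotated 23 nt form was the commonest in every library, at 46 of 154 reads in HSC (29.9%), 4563 in imDC (39.6%) and 2766 in maDC (44.9%), with 137 in DCreg (39.7%). The 24 nt form had 5.19% of reads in HSC, 16.1% in imDC and 16.9% in maDC, with 5.51% in DCreg. The 21 nt form had 13%, 4.40%, 1.36% and 7.83% in the same order. The 24 nt form thus held a larger share in imDC and maDC, and the 21 nt form in HSC and DCreg. The reads of other lengths did not all follow: the plain 22 nt read had 12.3%, 9.85%, 6.39% and 11.0% in the same order, and the plain 20 nt read 5.84%, 2.81%, 0.390% and 0.580%, lower in DCreg than in imDC.

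Placing reads on the hairpin (154 in HSC, 11488 in imDC, 6136 in maDC, 345 in DCreg) counted all ends together. Reads whose match ran beyond the annotated end made up 10.4% in HSC (6.06% to 16.3%), 27.1% in imDC (26.3% to 27.9%) and 36.5% in maDC (35.3% to 37.8%), with 12.2% in DCreg (8.92% to 16.1%). Reads that stopped matching before it made up 57.1% in HSC (48.9% to 65.1%), 28.5% in imDC (27.7% to 29.4%) and 13.8% in maDC (13% to 14.7%), with 46.7% in DCreg (41.3% to 52.1%). The intervals of DCreg and maDC do not meet for either share, whereas those of DCreg and HSC do. Because the hairpin continues with U, an added U cannot be told apart from a longer cut.

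**Figure D4:**
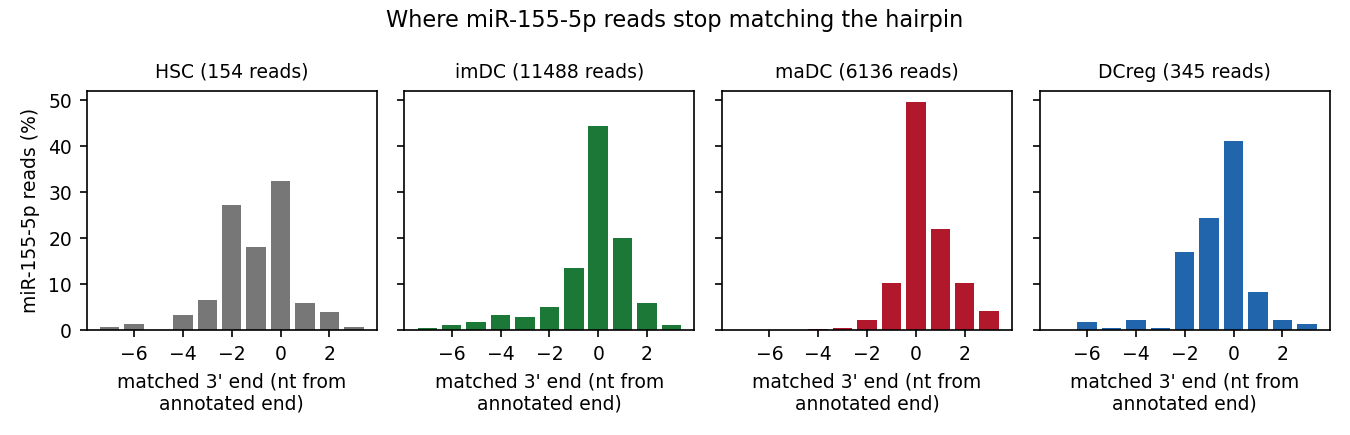
Share of miR-155-5p reads (vertical axis, percent) by the base at which they stop matching the hairpin, in nt from the annotated 3' end (0), for each library with its number of reads. The bars at -2 and -1 are taller in HSC and DCreg, and those at 1 and 2 are taller in imDC and maDC.

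For DCreg against maDC the share of miR-155-5p reads running past the annotation changed by -24.4 percentage points, while the median of 93 other miRNAs with at least 100 reads in both libraries was -0.63, and 2 of them moved at least as far. The share stopping early changed by 32.8 points, against a median of 8.50, and 3 of 93 moved at least as far. For imDC against HSC the share stopping early changed by -28.6 points, against a median of -4.80, and 1 of 129 moved at least as far. For maDC against imDC the share running past changed by 9.46 points (median 0.024), and 7 of 122 moved at least as far. The share stopping early changed by -14.7 points there, and 17 of 122 moved at least as far. For DCreg against imDC the share stopping early changed by 18.1 points, matched or passed by 19 of 95 other miRNAs, and the share running past by -14.9 points, matched or passed by 13 of 95.

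Short miR-155-5p reads of DCreg often ended in an unmatched A. Unmatched tails made only of A stood on 11.7% of reads in HSC (18 of 154, 7.08% to 17.8%), 8.75% in imDC (8.24% to 9.28%) and 9.0% in maDC (8.29% to 9.74%), with 20% in DCreg (69 of 345, 15.9% to 24.6%). The DCreg share was the highest and its interval did not meet those of maDC and imDC, though it met that of HSC. Among other miRNAs with at least 500 reads the median was 6.25% in HSC, 5.86% in imDC and 7.86% in maDC, with 6.91% in DCreg, and in DCreg 2 of 65 had a higher share than miR-155-5p. The change of 11.0 points between DCreg and maDC was matched by 0 of 93 other miRNAs with at least 100 reads in both, whose median change was -0.63 points. Tails of A are known to be added to miRNAs by nucleotidyl transferases.

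In DCreg 31 of the 69 reads with a tail of A stopped matching 2 nt early and 32 stopped 1 nt early. Of DCreg reads that stopped matching 2 nt before the annotated end, 31 of 59 had a tail of A (52.5%, 39.1% to 65.7%), against 34 of 142 in maDC (23.9%, 17.2% to 31.8%). Of those stopping 1 nt before it, 32 of 84 did in DCreg (38.1%, 27.7% to 49.3%) and 152 of 634 in maDC (24.0%, 20.7% to 27.5%). Of those matching up to the annotated end, 1 of 142 did in DCreg (0.704%) and 159 of 3045 in maDC (5.22%). Of those running 1 nt past it, 5 of 29 did in DCreg (17.2%, 5.85% to 35.8%) and 149 of 1355 in maDC (11.0%, 9.38% to 12.8%). HSC had a like placement, with 11 of its 18 tails of A 2 nt early, 6 of them 1 nt early and none on the 50 reads matching up to the annotated end. The 22 nt read with A alone had 7.25% of DCreg reads (25 copies) and 0.292% of maDC reads (18 copies). A single base read wrongly at the last position would be counted as a tail.

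**Figure D5:**
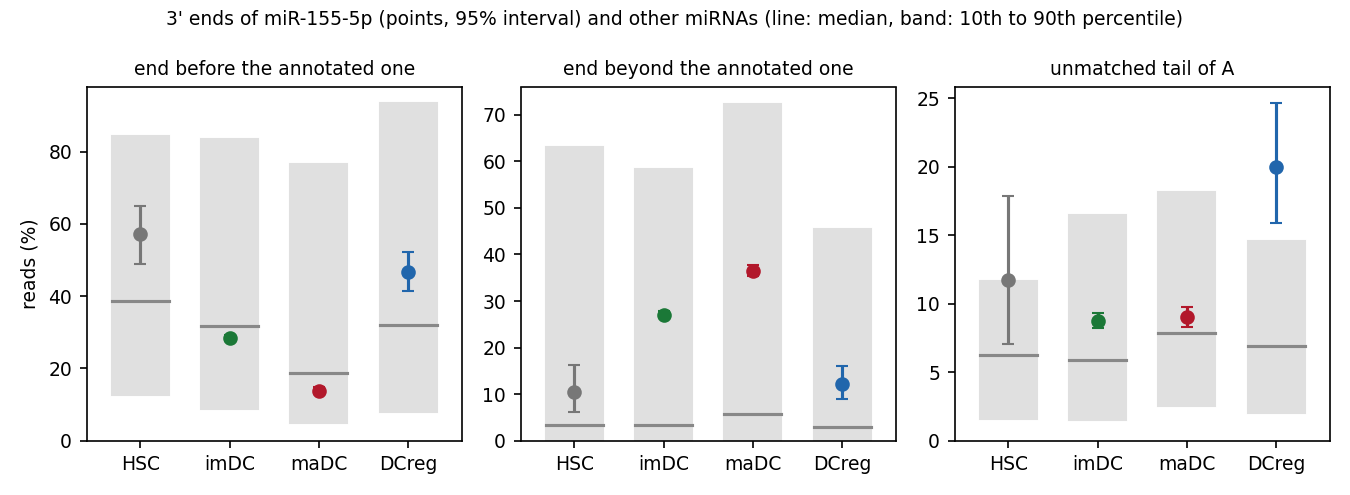
Share of miR-155-5p reads (points, percent, exact 95% interval) that stop matching before the annotated end, run beyond it, or carry an unmatched tail of A, by library. Grey bands span the 10th to 90th percentile and grey lines the median of other miRNAs with at least 500 reads; in the right panel DCreg, at 20%, lies above the band and HSC, at 11.7%, at its upper edge.

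Within the first 20 bases, reads with exactly 1 difference from miR-155-5p made up 10.9% in HSC (17 of 156, 6.48% to 16.9%), 5.11% in imDC (4.71% to 5.54%) and 4.59% in maDC (4.09% to 5.14%), with 6.88% in DCreg (4.46% to 10.1%). Other miRNAs had medians of 7.71%, 7.28%, 6.47% and 6.43% in the same order. Counting positions from 1 at the 5' end with the annotated base first, the commonest was G6T in HSC (4 reads), T14C in imDC (83 reads, 0.756%) and C7T, within the seed, in maDC (56 reads, 0.897%) and DCreg (3 reads). C7T also had 65 reads in imDC (0.592%). Sequencing error and a changed base cannot be told apart here.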

How the data were processed

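Small RNA of 18 to 30 nt was sequenced on the Solexa platform after 12 cycles of amplification, and clean reads were compared with miRBase release 19, per the labels' protocols. The deposited series table holds a whole-number score for each mature miRNA and hairpin, described as normalised counts per the file headers. Neither the normalisation nor the aligner is given in the sources used here. Column totals ran 4226458 (HSC), 5251069 (imDC), 4475569 (maDC), 2725948 (DCreg), so values were scaled to ppm. The deposited read lists hold other values, the copy number of each unique sequence as whole counts, with 6277096, 6554086, 6572858 and 4904897 reads in the same order.

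With Python 3.11.15 and SciPy 1.17.1, reads of at least 16 nt were assigned by exact match (16 matched bases, start within 2 nt, no more than 5 unmatched bases after the match, ties divided). This placed 82.8%, 80.4%, 84.0% and 80.2% of reads. Ends were placed on RefSeq hairpins. Log2 ratios include a pseudocount of 0.5, and folds are plain ratios. No count model was used. The trimmed mean of M-values and median-of-ratios, used as alternatives, were computed in Python. The assignment was tested on simulated data. Named miRNAs were both arms, the 5 nearest in pattern, TLR and NF-kB list members at 100 ppm and any sharing a seed. The TLR and NF-kB list held both arms of miR-146a, miR-146b, miR-132, miR-212, miR-9, miR-147, miR-221, miR-222 and miR-21, and miR-187-3p. The members and lists were chosen with earlier results of these data known.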

Additional observations from a re-analysis of the deposited data

Results flagged for a closer look

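Reads outside the windows used to count the arms appeared above the limit of 3 reads that a count of 0 allows. On the hairpin HSC had 5 such reads, imDC 91, maDC 9 and DCreg 0. Of the 91 imDC reads 73 began 3 to 8 nt inside the 5p arm. None was centred on the loop, and no read matched the opposite strand.

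Beside the hairpin, reads ended just before the first base of miR-155-5p, on the Mir155hg transcript. There were 6 of them in DCreg, 9 in maDC, 6 in imDC and 1 in HSC, all but HSC above that limit. Such reads, called microRNA-offset RNAs, lie on the far side of the Drosha cut. The commonest of them is shown, with the bases it shares with the annotated hairpin in capitals (chr16:84714123-84714142, plus strand, GRCm38), above the form that held 5 of the 6 DCreg reads (chr16:84714125-84714142).
20 nt: ttgctgaaggctgtatgCTG
18 nt: gctgaaggctgtatgCTG
Neither occurs in another GENCODE transcript. Offset reads were at 1.53 ppm in DCreg (95% Poisson interval 0.560 to 3.32), 1.63 ppm in maDC (0.745 to 3.09), 1.14 ppm in imDC (0.418 to 2.48) and 0.192 ppm in HSC (0.00487 to 1.07). As a share of offset and miR-155-5p reads they made up 1.71% in DCreg (0.630% to 3.68%), 0.146% in maDC (0.0668% to 0.277%) and 0.0521% in imDC (0.0191% to 0.113%). These shares have miR-155-5p reads in the denominator and so carry its difference between libraries, while the ppm intervals of the offset reads themselves overlapped. In HSC the share was 0.645% (0.0163% to 3.54%). The DCreg value rests mainly on copies of 1 sequence.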

How the results depend on the processing

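Of 180 values recomputed under an alternative, 128 stayed within the counting interval (list counts: within 1.5 times) and 52 moved. Only the 36 log2 ratios of miR-155-5p and the 18 of miR-155-3p could change sign. No ratio of 2-fold or more did so, while the smaller ratio of maDC over imDC did for both arms. The causes were not tested unless stated. No paired analysis was possible because each cell type has 1 library. Folds of miR-155-3p against HSC (1 table unit, 0 recounted reads) were given over the floor of 3 reads with lower interval bounds. They are not among the 180.

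The log2 ratio of miR-155-5p moved as follows. For imDC over HSC it was 6.02 with all reads as the total and 6.20 in recounted reads. For maDC over imDC it was -0.11 with the trimmed mean of M-values, 0.044 with median-of-ratios, -0.89 with all reads as the total, -0.51 without the 5 most abundant miRNAs of each library and -0.97 in recounted reads. For DCreg over maDC it was -3.84 with all reads as the total. For DCreg over imDC it was -3.55, -3.49, -4.74, -3.94 and -4.64 under those 5 settings in the same order. For maDC over HSC it was 5.87, 5.73 and 5.40, and for DCreg over HSC 2.43, 2.19 and 1.97, with the trimmed mean, median-of-ratios and without the 5 most abundant. For miR-155-3p, maDC over imDC was 0.044 and 0.20 with the trimmed mean and median-of-ratios. Scaling moved the median of all tested miRNAs by up to 0.86 (trimmed mean, DCreg over HSC).

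List members past the fold were 5 in recounted reads and 1 at 4-fold for maDC over imDC (3 as reported), 8 at 4-fold for maDC over HSC (13), and 10 at 10 ppm, 13 with no minimum and 1 at 4-fold for DCreg over HSC (4).

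With no 3' base unmatched to the annotated sequence, the 3p share was 0.349% in imDC, 0.179% in maDC and 0 in DCreg. The commonest 3p read is 1 base longer than annotated and so drops out. Leaving out miR-155-5p reads with a tail or a start unmatched to the hairpin put 97.5% of imDC and 97.9% of maDC reads at the annotated start. Reads of at least 20 nt gave 23.2% early ends, 29.1% long ends and 9.39% A tails in imDC. Counting each unique sequence once gave, for HSC, imDC, maDC and DCreg in turn, 79.2%, 70.7%, 75.2% and 90.6% at the annotated start, 66.7%, 53.6%, 45.0% and 65.6% early ends, 20.8%, 29.8%, 32.5% and 21.9% long ends, and 20.8%, 16.1%, 15.2% and 28.1% A tails, with DCreg again highest. Full-length reads gave 4.37% with 1 difference in DCreg. Depth limits the HSC (154 reads) and DCreg (345 reads) shares. These libraries had 24 and 32 unique miR-155-5p sequences, against 184 in imDC and 161 in maDC. Shares of unique sequences therefore rest on few sequences in HSC and DCreg.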
